A study of Mus musculus with 14 samples.

Results

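The hairpins mmu-mir-193a, mmu-mir-193b, mmu-mir-365-1, mmu-mir-365-2, mmu-mir-26a-1, mmu-mir-26a-2, mmu-mir-26b and mmu-mir-335 encode microRNAs (miRNAs). These miRNAs have been studied in fat cells, though not only there. The prefix mmu, for mouse, is left out from here on. The hairpins were taken by name from the authors' deposited table, where all 8 are among 539 miRNA hairpins. The table compares exosomes released by CD11b+F4/80+ adipose tissue macrophages (ATMs) of C57BL/6 mice, with 7 libraries labelled obese ATM exosomes and 7 labelled lean ATM exosomes. Both groups were macrophages kept for 72 h in IMDM with 10% exosome-free serum, after which exosomes were pelleted from the medium by ultracentrifugation. The labels do not say how obesity was brought about, nor whether the libraries of a group stem from different animals, and the p-values may thus reflect technical spread alone. The age labels start at 24 weeks throughout, and their upper end grows by 1 week with each sample listed, at 26 to 32 weeks in the obese group and 33 to 39 weeks in the lean group. If those labels hold, the effects of age and of obesity cannot be told apart.

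A miRNA is cut from a hairpin precursor and loaded into Argonaute, where bases 2 to 8, the seed, pair with target messenger RNAs and lower their output. Exosomes are small vesicles that carry miRNAs out of the cell. In mouse cultures the pair miR-193b and miR-365 has been reported to favour brown over muscle fate, while work with mice lacking miR-193b and miR-365-1 has questioned that these are needed for it. The miR-26 family has been reported to promote human adipocyte differentiation and to restrain fat expansion in mice. The hairpin of miR-335 lies in Mest, an imprinted gene whose level follows fat expansion in mice, and miR-335 itself was reported to be raised in fat of obese mice. These roles are background from adipocyte work, and nothing in the table tells which cell a miRNA came from.

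The results turn on which hairpins share a mature sequence, so the better-known arm of each is shown, from RefSeq on GRCm38.p6, with the seed in capitals. All 8 hairpins were matched by symbol.
mir-193a (miR-193a-3p): aACUGGCCuacaaagucccagu
mir-193b (miR-193b-3p): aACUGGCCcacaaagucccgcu
mir-365-2 and mir-365-1 (miR-365-3p): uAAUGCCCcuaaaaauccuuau
mir-26a-1 and mir-26a-2 (miR-26a-5p): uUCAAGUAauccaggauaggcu
mir-26b (miR-26b-5p): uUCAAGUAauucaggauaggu
mir-335 (miR-335-5p): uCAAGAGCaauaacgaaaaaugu

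The arms shown for the 8 hairpins thus have 4 seeds, and the opposite arms are not counted. None of the other rows that have a mature sequence in RefSeq carries one of these 4. Counted from 1 at the 5′ end of the first-named miRNA, miR-26a-5p and miR-26b-5p differ by C11U and C21U, and miR-26b-5p is 1 base shorter. Likewise miR-193a-3p and miR-193b-3p differ by U9C, A20G and G21C, all outside the seed. The 2 hairpins of miR-365 give the same mature sequence, as do the 2 hairpins of miR-26a.

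At issue is whether these miRNAs were present at other levels in exosomes of obese than of lean ATMs. Which group stands on top of the fold changes is not stated in the table, and each is therefore called positive or negative. From outside these data, it is known that a published study of the material found miR-155 raised in exosomes from obese ATMs, and mir-155 has a log2 fold change of 4.41 in the authors' deposited table. Under that report, a negative value stands for a lower level in the obese group. As no library has values of its own in the table, the spread within each group, the overlap of the groups and the sequencing depth are unknown here.

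One of the 8 hairpins, mir-365-2, differed between the groups at an adjusted p under 0.05, on the negative side. Of all hairpins in the authors' deposited table, 5.57% pass that threshold, and 3.53% pass it on the negative side. The call of mir-365-2 was lost under the Benjamini-Yekutieli adjustment, which allows any dependence between rows (adjusted p = 0.182). The other 7 hairpins did not pass, and none of them had an unadjusted p under 0.05, which 17.6% of all hairpins had in the authors' deposited table. By sign in the authors' deposited table, 5 of the 8 were positive and 3 negative, and of all 539 rows 284 were positive and 255 negative. The median log2 fold change was 0.49 over the 8 hairpins and 0.09 over all 539, from the authors' deposited table. The 2 hairpins of miR-26a are taken below as in effect 1 measurement, yet both enter these counts. The median over the 8 lies between their values, 0.48 and 0.50 in the authors' deposited table.

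**Figure D1:**
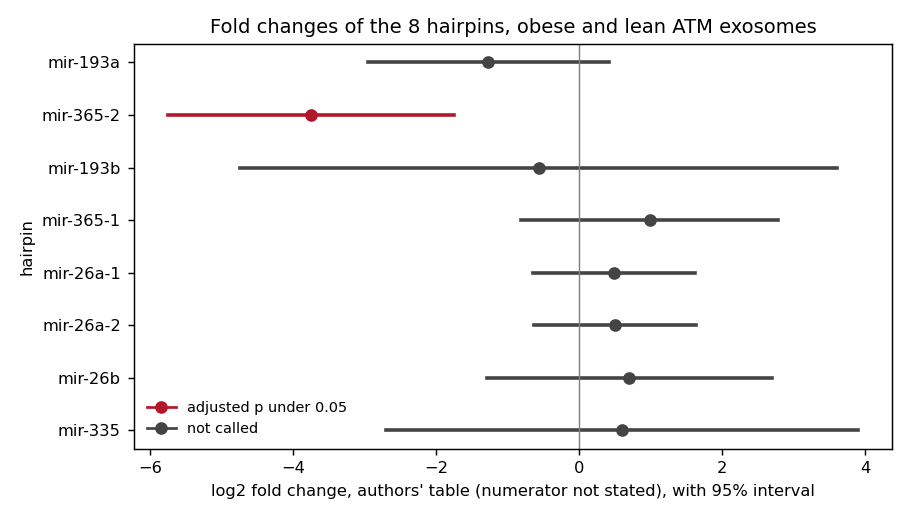
Log2 fold change (x axis, numerator not stated) of each of the 8 hairpins (rows) in the authors' deposited table, comparing 7 obese with 7 lean ATM exosome libraries. Dots are the deposited values and bars their 95% intervals; mir-365-2 in red, at −3.75, is the one hairpin whose bar stays off 0.

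The miR-193 and miR-365 genes come as 2 linked pairs. In GENCODE M21, on the GRCm38 assembly, mir-193a (ENSMUSG00000065395.1) lies on the plus strand of chromosome 11 from base 79711969 to base 79712034. Next to it lies mir-365-2 (ENSMUSG00000065489.1), from base 79726400 to base 79726511, so that 14365 bases separate them. Neither overlaps another annotated gene. On chromosome 16, mir-193b (ENSMUSG00000076972.2) runs from base 13449523 to base 13449601 and mir-365-1 (ENSMUSG00000065449.1) from base 13453840 to base 13453926, both on the plus strand and 4238 bases apart. Both lie within an intron of Gm15738, an antisense gene on the opposite strand. The sources used here do not name the authors' genome build, and these positions locate the genes only.

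The authors' deposited table puts the called hairpin, mir-365-2, at a log2 fold change of −3.75 (adjusted p = 0.0266), a size of 13.4-fold. Its standard error was 0.95 and its 95% interval −5.75 to −1.74. Its mean log2 expression over both groups was 8.78 in the authors' deposited table, higher than in 81.3% of rows. Most of the hairpins called on the negative side were scarcer: among those 19, mir-365-2 was the third most abundant, after mir-5103 at 12.09 and mir-3470b at 8.87 in the authors' deposited table. By p it ranked 20 of 539. The next most abundant of that group, mir-29b-1, had a mean log2 expression of 6.41 in the authors' deposited table.

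The other hairpin of miR-365 did not follow it. For mir-365-1 the authors' deposited table gives a log2 fold change of 0.98 (95% interval −0.82 to 2.79) and an adjusted p of 0.591, at a mean log2 expression of 4.75. The hairpin mir-365-2 therefore lay 4.73 below mir-365-1 in log2 fold change and 4.03 above it in mean log2 expression. Without values per library the correlation between them is unknown, so the standard error of their difference can lie anywhere from 0.10 to 1.81. With the smallest of these, the 95% interval of mir-365-2 minus mir-365-1 runs from −4.93 to −4.53, and with the largest from −8.54 to −0.93. The pair was compared with both values known, so no p is given. Under either error the interval stays below 0.

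The hairpins of the miR-365 pair show what the rows have in common, with miR-365-3p in capitals.
mir-365-2 hairpin: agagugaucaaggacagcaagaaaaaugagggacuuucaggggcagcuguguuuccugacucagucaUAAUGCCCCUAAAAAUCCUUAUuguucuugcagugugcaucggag
mir-365-1 hairpin: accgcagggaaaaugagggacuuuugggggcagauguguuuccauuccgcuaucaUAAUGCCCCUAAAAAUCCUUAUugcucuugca

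The longest run that both hairpins share is 27 bases, and it contains the whole of miR-365-3p. The opposite arms can be told apart, as these 2 lines show with their differing bases in capitals.
miR-365-2-5p: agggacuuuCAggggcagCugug
miR-365-1-5p: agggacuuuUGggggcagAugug

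From miR-365-2-5p to miR-365-1-5p the differences are C10U, A11G and C19A, counted from the 5′ end. A read of miR-365-3p matches both rows equally well, and how such reads were assigned was not analysed here. The rows do not separate arms either, so which arm carries the difference between mir-365-2 and mir-365-1 was not tested. With the sister hairpin left aside, neither shares 20 bases with an annotated transcript of another gene. The longest run outside the pair was 17 bases for mir-365-2 and 19 bases for mir-365-1.

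Among hairpins that share a mature sequence, the miR-365 pair stood furthest apart. RefSeq gives a mature sequence for 480 of the 539 rows, and among those 31 pairs of hairpins, formed by 52 hairpins, have at least 1 mature sequence in common. The 4.73 between the log2 fold changes of mir-365-2 and mir-365-1 ranked first among the 31, whereas the median of the other 30 pairs was 0.16. In 13 pairs the log2 fold changes lay within 0.1 of each other, and in 4 pairs they were more than 1 apart. Those 4 were miR-365, miR-29b with 3.12 between its hairpins, miR-194 with 2.20 and miR-128 with 1.44, all from the authors' deposited table. In each of the 4, the hairpin of higher mean expression was negative and lay below its sister. That trait is thus not particular to miR-365. In the authors' deposited table mir-29b-1 was at −3.66 and mir-29b-2 at −0.54, mir-194-2 at −1.08 and mir-194-1 at 1.11. Likewise mir-128-1 was at −0.21 and mir-128-2 at 1.23. Like mir-365-2, mir-29b-1 was called while its sister was not. The miR-365 pair was the one pair of the 31 whose widest 95% interval stayed off 0. In mean log2 expression its gap of 4.03 was the second largest, after 4.58 for the hairpins of miR-219a, and the median of the other 30 pairs was 0.15. The ranking is a description, since the pair was picked out with its values known. Pairs within one family overlap, so the 31 are not independent.

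**Figure D2:**
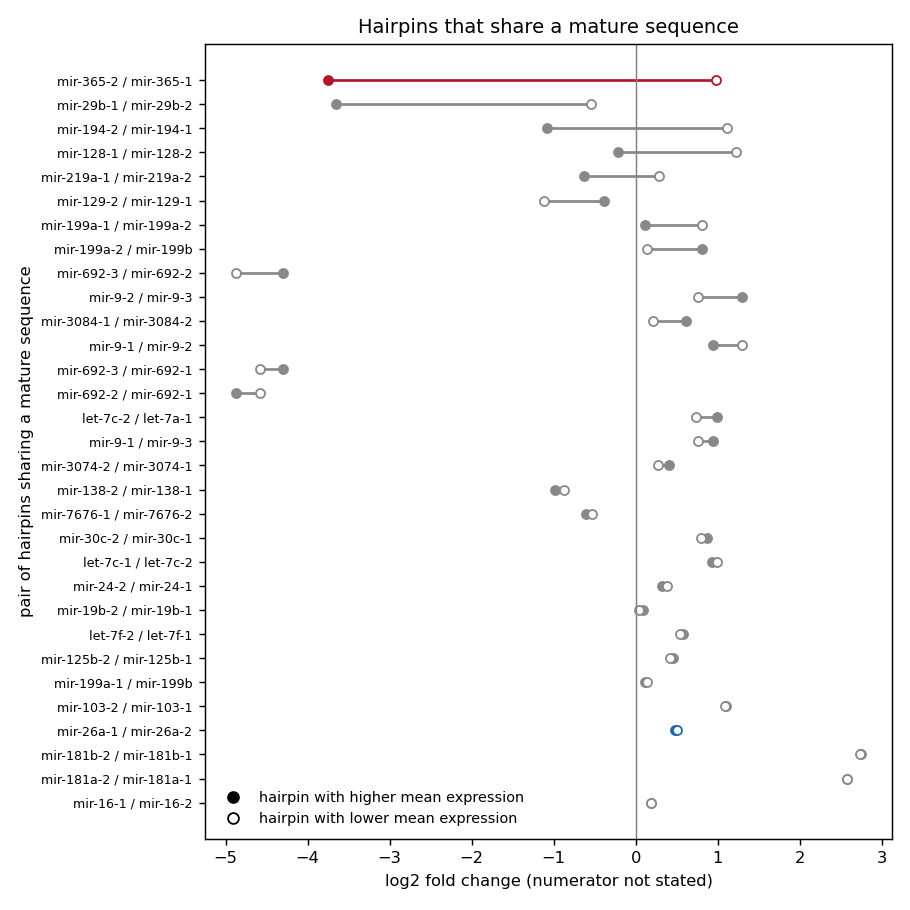
Log2 fold changes (x axis, numerator not stated) of 31 pairs of hairpins that share a mature sequence, from the authors' deposited table, ordered by the distance within a pair. Filled dots mark the hairpin with the higher and open dots that with the lower mean expression; the miR-365 pair (red) spans −3.75 to 0.98, while the miR-26a pair (blue) nearly coincides at 0.48 and 0.50.

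The neighbours of the miR-365 hairpins, which encode the miR-193 miRNAs, did not pass the test. In the authors' deposited table mir-193a was at −1.27 (95% interval −2.95 to 0.41, adjusted p = 0.429), with a mean log2 expression of 5.56. It shares its sign with mir-365-2, which lies downstream, and the difference mir-365-2 minus mir-193a was −2.48. Its 95% interval runs from −2.80 to −2.16 with the smallest error and from −6.16 to 1.21 with the largest, so the sign of that difference is not settled. For mir-193b the authors' deposited table gives −0.56 (95% interval −4.74 to 3.61, adjusted p = 0.929). With a mean log2 expression of 0.97, higher than in 33.4% of rows, it was the scarcest of the 8, and its standard error of 1.99 was the largest among them. Its interval leaves differences of more than 10-fold in both directions possible. Against it, mir-365-1 lay 1.55 higher in log2 fold change, with 95% intervals from −0.83 to 3.92 at the smallest error and from −4.43 to 7.53 at the largest. In the chromosome 11 pair both values were negative, and in the chromosome 16 pair they had opposite signs.

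**Figure D3:**
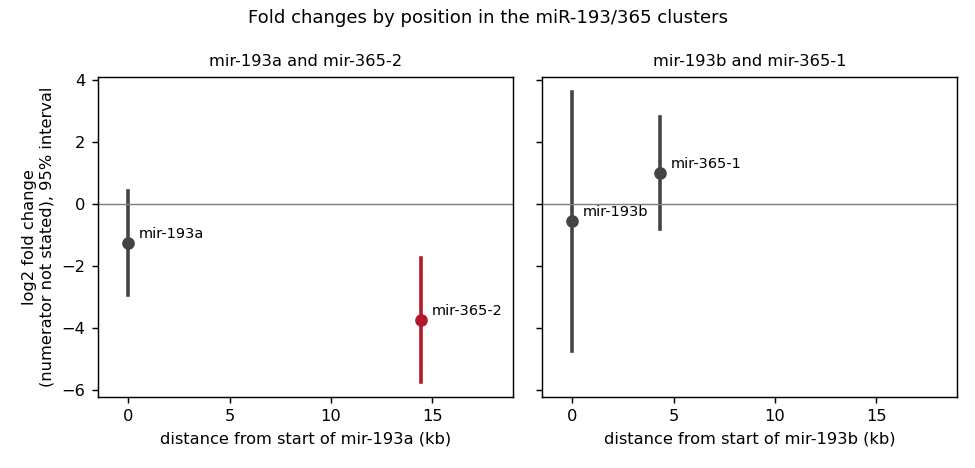
Log2 fold change with 95% interval (y axis, numerator not stated) against the distance in kb from the start of the miR-193 hairpin, for the chromosome 11 pair (left) and the chromosome 16 pair (right), from the authors' deposited table. The red mark, mir-365-2, lies 14.4 kb downstream of mir-193a and is the one called hairpin of the 4.

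The miR-26 hairpins were the most abundant of the 8 and showed small positive values, none of them past the threshold. In the authors' deposited table mir-26a-1 had a log2 fold change of 0.48 (95% interval −0.64 to 1.61, adjusted p = 0.695) and mir-26a-2 had 0.50 (95% interval −0.63 to 1.63, adjusted p = 0.688). Their mean log2 expression was 11.05 for mir-26a-1 and 11.04 for mir-26a-2 in the authors' deposited table, ranks 44 and 45 of 539. The values of these rows are nearly the same, and their hairpins share a run of 25 bases with the whole of miR-26a-5p, so they are taken as in effect 1 measurement. These 2 rows had the narrowest intervals of the 8, with upper ends at 1.61 and 1.63, so that a log2 difference of 2 in either direction lies outside them.

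The third member, mir-26b, was at 0.70 (95% interval −1.30 to 2.70, adjusted p = 0.760) with a mean log2 expression of 9.89 in the authors' deposited table. It differed from mir-26a-1 by 0.22 in log2 fold change, with a widest 95% interval from −2.91 to 3.34. Its hairpin and that of mir-26a-1 share no run longer than 11 bases. Each miR-26 hairpin lies in a gene of the small C-terminal domain phosphatases, which act on RNA polymerase II. GENCODE M21 places mir-26a-1 (ENSMUSG00000065513.1, chromosome 9, bases 119031796 to 119031885) in an intron of Ctdspl. It places mir-26b (ENSMUSG00000065468.1, chromosome 1, bases 74394310 to 74394394) in an intron of Ctdsp1. The hairpin mir-26a-2 (ENSMUSG00000065430.1, chromosome 10, bases 126995530 to 126995613) overlaps an exon of at least 1 annotated transcript of Ctdsp2. All are on the plus strand, like their hosts.

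The Mest hairpin mir-335 was scarce and its value imprecise. Its log2 fold change was 0.60 with a 95% interval from −2.69 to 3.90 and an adjusted p of 0.912, at a mean log2 expression of 1.28, from the authors' deposited table. That level was higher than in 38.0% of rows, below the median of 2.34. With a standard error of 1.57, a change of several-fold either way is within the interval. GENCODE M21 places mir-335 (ENSMUSG00000065501.1) in an intron of Mest on the plus strand of chromosome 6, from base 30741299 to base 30741396.

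**Figure D4:**
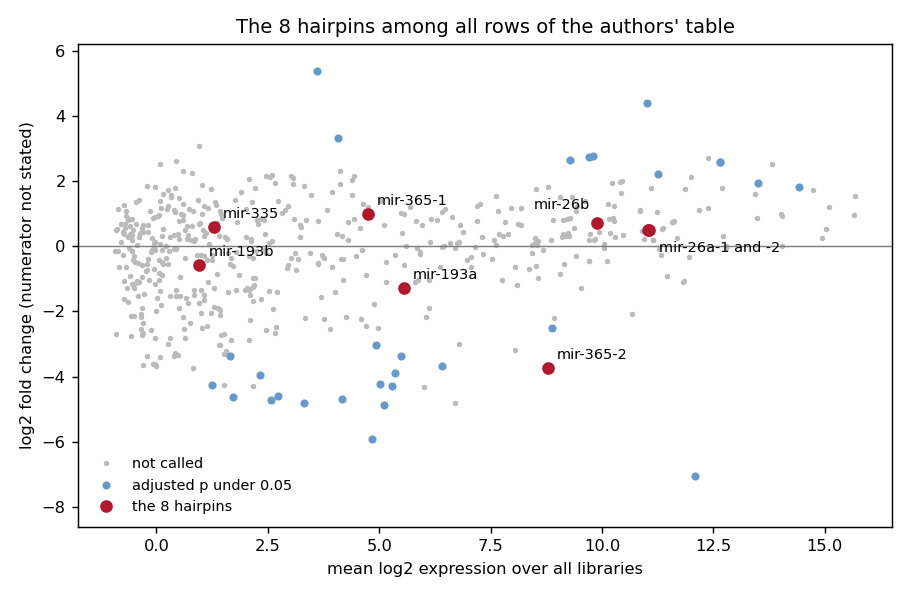
Log2 fold change (y axis, numerator not stated) against mean log2 expression over all libraries (x axis) for all 539 hairpins of the authors' deposited table. Blue dots have an adjusted p under 0.05, grey dots do not, and red dots are the 8 hairpins, from mir-193b at a mean of 0.97 to mir-26a-1 at 11.05; of the red dots mir-365-2, at −3.75, is the one past the threshold.

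In order of mean log2 expression the 8 hairpins ran from mir-26a-1 and mir-26a-2 through mir-26b, mir-365-2, mir-193a, mir-365-1 and mir-335 to mir-193b. The spread of each mean over libraries is not in the table, so which neighbours in that order differ was not tested.

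Other miRNAs tied to fat cells were set beside the 8 hairpins in 3 lists. Of 13 hairpins reported to promote adipogenesis, all in the table, 1 was called positive and none negative, with a median log2 fold change of 1.09, from the authors' deposited table. In the authors' deposited table that hairpin was mir-210, which responds to hypoxia, at 2.64 (adjusted p = 0.00704), followed by mir-30d at 1.61 (adjusted p = 0.123) and mir-30a at 1.18 (adjusted p = 0.350). Of 8 measured hairpins reported to restrain adipogenesis, 2 were called positive and none negative, with a median of 1.76, from the authors' deposited table. The authors' deposited table has these as mir-155, from which the direction was taken, and mir-222 at 1.82 (adjusted p = 0.0240), with mir-27a next at 1.80 (adjusted p = 0.0740). Of all rows, 2.04% were called positive and 3.53% negative, so the absence of negative calls in lists of this size is near the background and is no result about them. The signs were positive in 13 of 13 promoting and 8 of 8 restraining hairpins, against 284 of all 539 rows. After recentring by 0.34, the median of the 180 most abundant rows, 11 and 7 were positive. At an unadjusted p under 0.05, 2 and 5 passed, against 17.6% of all rows. Some listed hairpins share a mature sequence, such as mir-103-1 with mir-103-2 and mir-30c-1 with mir-30c-2, so these counts are not of independent measurements. The restraining list also holds mir-155, from which the direction was taken.

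The list tied to brown and beige adipocytes, a field in which miR-193b and miR-365 were studied, held no call. At 5.57% of all rows called, that is near the background for its size. At an unadjusted p under 0.05, 2 of its 9 measured hairpins passed, mir-106b and mir-93. Of all hairpins 17.6% did, so that count is near the background as well. A row in the authors' deposited table was found for 9 of its 12 hairpins, with a median log2 fold change of 0.80. Of the 9, 6 were positive, against 284 of all 539 rows. The smallest p-values in the authors' deposited table were those of mir-106b at 1.81 (adjusted p = 0.0614), mir-93 at 1.62 (adjusted p = 0.0942) and mir-455 at 1.94 (adjusted p = 0.478). Whether mir-365-2 differs from these lists was not tested.

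As a check of the labelled cell type, 6 hairpins listed for macrophages and leukocytes were looked up. All were present, with mean log2 expression from 7.62 for mir-223 to 15.02 for mir-22 in the authors' deposited table. Red cell hairpins were present as well, from 4.15 for mir-144 to 11.81 for mir-486a, and the endothelial mir-126a was at 6.46 in the authors' deposited table. Of the macrophage and leukocyte list, mir-223, mir-142a (9.70) and mir-342 (11.32) lay below mir-486a. Above it lay mir-146a (11.99), mir-21a (14.94) and mir-22. Presence of the list therefore does not settle the cell type. None of these 10 hairpins was called and 1 had an unadjusted p under 0.05, against 5.57% and 17.6% of all rows, so the absence of calls is near the background. Their log2 fold changes ran from −1.09 for mir-486a to 2.11 for mir-146a in the authors' deposited table, and their part in the value of mir-365-2 was not tested.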

How the data were processed

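Small RNA libraries were compared by the authors in 1 table of 539 hairpins. Among the tools in the submitters' processing notes are limma, edgeR, Novoalign and Trimmomatic 0.30, with no roles given. The sources used here do not give the build, annotation, filters, scaling or handling of reads that match several hairpins. Fold changes and mean expression are log2 values as deposited, t is a deposited score, p-values are deposited unadjusted and adjusted, and B is a deposited natural log, per the file headers. The table has no values per library, so depth is unknown, no counting interval could be given and the authors' test was used as deposited.

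Adjusting the deposited p by Benjamini-Hochberg over all 539 rows gave the deposited adjusted p (largest difference 1.46e-14). From t and p, 17.9 degrees of freedom were recovered, standard errors are fold change over t, and intervals are at 95%. The standard error of a difference between rows was bounded by the difference and the sum of both errors, which covers any correlation. Sequences came from RefSeq (GRCm38.p6), positions from GENCODE M21 (GRCm38), and 141767 GENCODE transcripts were searched for exact runs of at least 20 bases on the sense strand. Computations used Python 3.11.15, pandas 2.3.3 and SciPy 1.17.1. The recovery of degrees of freedom, the intervals of single rows and the adjustments of p were tested on simulated independent rows. The intervals of differences between rows, the ranking of pairs and the list counts were not tested in that way. All 8 hairpins are named, with the 3 of smallest p in each other list; mir-5103, mir-3470b, mir-29b-1 and the hairpins of miR-29b, miR-194, miR-128 and miR-219a were added after their values were seen. Members and lists were chosen with earlier results of these data known.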

Additional observations from a re-analysis of the deposited data

How the results depend on the processing

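Of 6 alternatives, 5 left 1 hairpin called, mir-365-2. Among them were an adjusted p under 0.1, a minimum absolute log2 fold change of 1, and recentring by the median of the 180 most abundant rows (0.34). The others were keeping the 359 rows of highest mean expression, and 1 hairpin per stem. The last of these left 508 stems, and its call rests on mir-365-2 being the hairpin kept. With an adjusted p of 0.0266 and a log2 fold change of −3.75, mir-365-2 could not be lost under the looser threshold or the minimum fold change. Recentring by a positive value moves a negative one further from 0, so that setting was no strict test of the call. Under the Benjamini-Yekutieli adjustment, which allows any dependence between rows, 0 were called. The adjusted p of mir-365-2 ran from 0.0134 to 0.182 over these alternatives, the highest being that of Benjamini-Yekutieli, a stricter adjustment by construction. All 8 hairpins kept their sign and their side of the threshold after recentring by 0.34 or by 0.09, the median of all rows. Recentred by 0.34, mir-26a-1 was at 0.14 and mir-365-2 at −4.09. The same recentring left 11 of 13 adipogenesis-promoting and 7 of 8 restraining hairpins positive, against 13 and 8 before it.

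The 2 settings chosen after seeing the data left the miR-365 pair first: keeping the 23 pairs with both hairpins at or above the median mean expression, and dividing each difference by its widest standard error. No paired analysis was possible because no library has values of its own, so the replicate block was not run, and leaving out single libraries was not possible either. The unknown depth and the standard errors of 1.57 for mir-335 and 1.99 for mir-193b limit what can be said of those 2 hairpins.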
